A study of Mus musculus with 8 samples.

Results

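The genes described here are 30 retinal progenitor and neurogenic factors, chosen by name and grouped by role. Every probe set that the array's annotation assigned to exactly 1 gene symbol, that of a listed gene, was kept, which gave 69 probe sets of 34945 named ones, for 30 of 18193 genes. A probe set is a group of short oligonucleotide probes whose signals are combined into 1 value, assigned to a gene by the array's annotation. Of the 30 genes, 12 had 1 probe set and 18 had several, with the most, 8, for Sox4. Expression was measured with Affymetrix 3′ arrays in whole retina of mouse pups at postnatal day 8 (P8). The 4 Control samples were Six3-Cre pups, and the 4 Z/Edn2 samples were pups with Six3-Cre and also the Z/Edn2 allele, a transgene that expresses Edn2, the gene of the secreted peptide endothelin 2, after Cre recombination. All pups therefore carried Six3-Cre, which drives Cre from regulatory sequence of Six3, itself 1 of the 30 genes. The sires are given as Six3-Cre; Six3-Cre and the dams as Z/Edn2, and the allele was recognised by LacZ activity in tail clips. The strain background was mixed, mostly C57BL/6 and 129, and 2 to 3 pups went into each pool. No group without Cre was analysed here. The labels call the samples biological replicates.

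Retinal progenitors are dividing cells that express homeobox factors such as Rax, Lhx2, Six3 and Six6. Notch signalling, read out by Hes factors, keeps them dividing, while basic helix-loop-helix (bHLH) factors such as Neurog2 and Atoh7 start neuron formation, and factors such as Otx2, Prdm1 and Foxn4 direct the choice between cell types. In the mouse, the last retinal neurons and the Mueller glia are born in the first postnatal days, and the photoreceptors, bipolar cells and glia then mature. A retina that lags in this sequence would hold more transcript of factors limited to progenitors and newborn neurons and less of the late genes. This is the question the comparison of the groups addressed here. Some listed factors, such as Neurod1, Otx2 and Lhx2, also act in later cells, so a lag need not raise every member. Medians and sign counts over all members mix both kinds.

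The label retina was checked against the photoreceptor factors Crx (12.35 to 12.72 log2 signal over the 8 arrays) and Nrl (13.15 to 13.44), the glial gene Rlbp1 (10.89 to 11.66) and Pax6 (10.77 to 11.06), against array medians of 6.48 to 6.60. Edn2 itself had a log2 signal of 3.98 ± 0.125 (SD) over the 4 Control arrays and 4.16 ± 0.129 over the 4 with the transgene, which did not pass (limma adjusted p = 0.9997). Whether its probe set lies in the transgene's transcript is not given in the sources used here. Control 1 and Z/Edn2 1 had a smaller difference between the 3′ and the 5′ actin signal, a measure of RNA integrity and labelling, at 0.65 and 0.56 against 1.06 to 1.42 in the other arrays (log2). Z/Edn2 3 had the highest array median, 6.60 against at most 6.52. Arrays with the same replicate number resembled each other to differing degrees, most in replicate 1 and least in replicate 3, as described below.

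No probe set of the 30 genes passed the test between Z/Edn2 and Control retina. Of 69 probe sets, 0 were higher and 0 lower (limma, Benjamini-Hochberg over all named probe sets), while 0.114% of all named probe sets were called, 31 higher and 9 lower. With the replicate number as a block the count was again 0 of 69, against 0.269% of all. An unadjusted p under 0.05 was reached by 2 of the 69, Sfrp2 and 1 of the probe sets of Atoh7, both higher in Z/Edn2, where the share over all named probe sets was 4.03%. With the block it was reached by 8, all higher, where the share over all was 8.54%. Of all named probe sets with such a p, 992 of 1410 were higher without the block and 1966 of 2983 with it. The smallest adjusted p was 0.889 without the block, for Atoh7, and 0.202 with it, for Six3. These probe sets of Sfrp2, Atoh7 (1450796_at) and Six3 (1426637_a_at) had low mean log2 signals over all arrays, 6.00, 6.19 and 5.04. Each lay below every array median, while 47 of the 69 were above the median level of all named probe sets.

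The differences were small and mostly positive. The log2 fold change, Z/Edn2 minus Control throughout, lay between −0.19 for Insm1 and 0.48 for Six3, with a median over the 69 probe sets of 0.088 against 0.018 over all named probe sets. It was positive in 54 and negative in 15, where 56.3% of all named probe sets were positive. When each array was centred on its median, 49 were positive (71.0%), against 46.5% of all, and the median was 0.061. Within same-numbered pairs of arrays, 17 of the 69 were higher in all 4 pairs, against 11.0% of all. In 2 of the 69 all 4 pairs were lower, against 2412 of 34945 over all. Groups did not overlap in 2 of the 69, Atoh7 at 1450796_at and Sfrp1 at 1416594_at, against 3.13% of all. Their mean log2 signals over all arrays, 6.19 and 5.51, were below every array median.

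The 4 arrays per group set how small a difference could be seen. In 66 of the 69 probe sets the range among the 4 Control arrays was wider than the difference between the groups, against 91.3% of all named probe sets. The 95% interval of the log2 fold change lay inside a 1.5-fold change in either direction in 45 of the 69, against 88.0% of all. The other 24 intervals reached beyond it, the widest being those of Sox4 at 1419157_at (−1.10 to 1.28), Sox11 at 1453125_at (−0.97 to 1.11), Six3 at 1426637_a_at (−0.48 to 1.44) and Neurog2 (−0.79 to 1.10). These intervals come from the fit without the block and include the spread between replicate numbers. With the block the SE was 0.145 against 0.530 for that Sox4 probe set, 0.111 against 0.462 for Sox11, 0.0978 against 0.428 for Six3 and 0.339 against 0.421 for Neurog2. In whole retina, fewer cells of a type and less RNA per cell cannot be told apart.

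**Figure D1:**
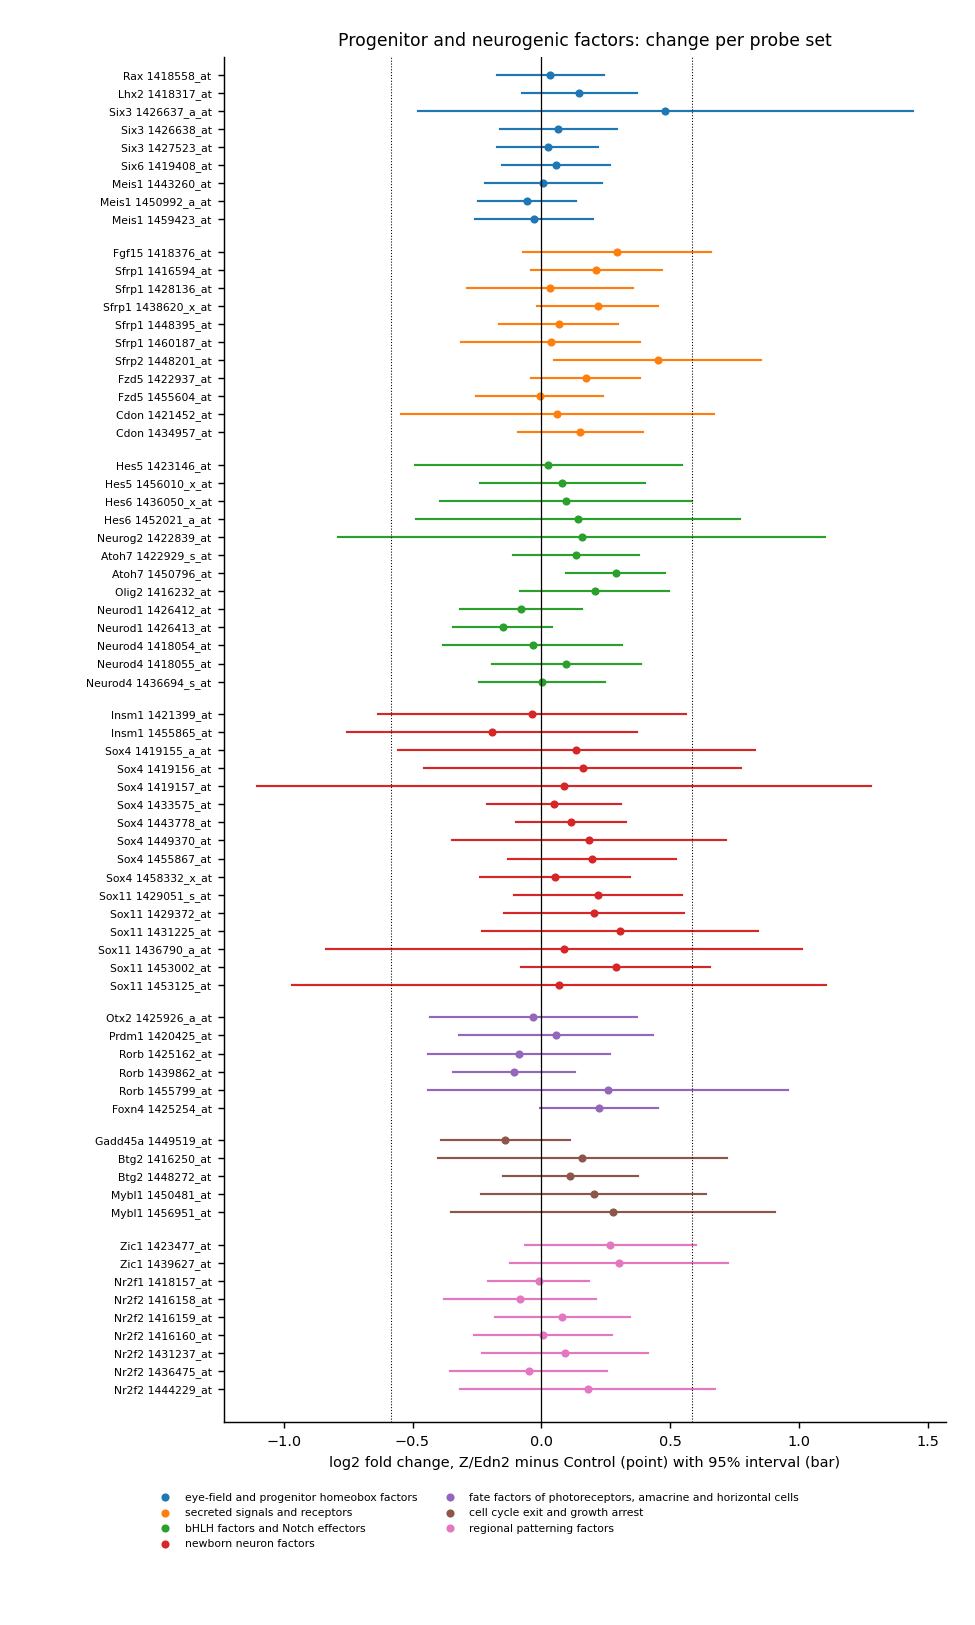
Log2 fold change (x axis, Z/Edn2 minus Control) of each of the 69 probe sets (y axis), with its 95% interval from limma, coloured by role. Solid line: no change; dotted lines: a 1.5-fold change either way. All but 2 intervals, those of Sfrp2 (0.048 to 0.85) and Atoh7 at 1450796_at (0.097 to 0.48), cross 0, and neither of these passed after adjustment.

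None of the 9 probe sets of the homeobox factors of the eye field and of progenitors was called. Their log2 fold changes had a median of 0.034 and ran from −0.056 for Meis1 to 0.48 for a probe set of Six3. Rax, which is needed to form the eye field, had a log2 signal of 10.34, 10.10, 10.13 and 10.22 in Control 1 to 4 and of 10.38, 10.11, 10.16 and 10.27 in Z/Edn2 1 to 4. The groups overlapped, and the order of the replicates was the same in both. Its log2 fold change was 0.034 ± 0.0924 (SE, limma adjusted p = 0.9997), and each Z/Edn2 array was the higher of its pair, by 0.01 to 0.05. Lhx2, a LIM homeobox factor that maintains progenitors and later acts in Mueller glia, went from 9.01 ± 0.0917 to 9.16 ± 0.161 (log2 signal, SD, n = 4 each). Six6, a close relative of Six3, had a log2 fold change of 0.056 ± 0.0933, and its interval of −0.15 to 0.27 lay inside the 1.5-fold bounds. Meis1, a TALE homeobox factor, had 3 probe sets at −0.056, −0.027 and 0.0077.

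Six3, a repressor of Wnt genes in the forming eye, had 3 probe sets that disagreed in size. The signal of 1427523_at was 9.92 ± 0.0584 in Control and 9.94 ± 0.131 in Z/Edn2 (SD), and 1426638_at had a log2 fold change of 0.067. The third, 1426637_a_at, had a log2 signal of 5.81, 4.28, 4.48 and 4.65 in Control 1 to 4 and of 6.50, 4.85, 4.96 and 4.83 in Z/Edn2 1 to 4. Replicate 1 stood above the other replicates in both groups, and each Z/Edn2 array was above its same-numbered Control array, by 0.17 to 0.69. Its log2 fold change was 0.48 ± 0.428 (SE, limma adjusted p = 0.9997, or 0.202 with the block). Replicate 1 was also the pair with the smaller 3′ minus 5′ actin difference, and the part of that in this result was not tested. Which Six3 probe sets, if any, match sequence of the Six3-Cre transgene is not given in the sources used here.

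The secreted signals and their receptors held 1 of the 2 probe sets with an unadjusted p under 0.05. None of the 11 probe sets of this group was called. The difference was positive in 10, and the median log2 fold change was 0.15. Sfrp2, a secreted inhibitor of Wnt signalling made by progenitors, had a log2 signal of 6.02, 5.48, 5.85 and 5.76 in Control 1 to 4 and of 6.63, 6.00, 5.87 and 6.41 in Z/Edn2 1 to 4. The values of Z/Edn2 2 and 3 lay within the Control range, and the other two above it. The log2 fold change was 0.45 ± 0.179 (SE, 1.37-fold, limma adjusted p = 0.9997, or 0.326 with the block), with 4 of 4 pairs higher.

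Sfrp1, the other secreted Wnt inhibitor of the list, had 5 probe sets, all with positive log2 fold changes, from 0.033 to 0.22. At 1416594_at the log2 signal was 5.47, 5.39, 5.30 and 5.47 in Control 1 to 4 and 5.94, 5.48, 5.58 and 5.49 in Z/Edn2 1 to 4. The groups did not overlap, but only Z/Edn2 1 stood clear of the others. At 1438620_x_at it was 5.77, 5.84, 5.75 and 5.91 in Control 1 to 4 and 6.21, 6.14, 6.02 and 5.77 in Z/Edn2 1 to 4, so that Z/Edn2 4 lay within the Control range. Their log2 fold changes were 0.21 ± 0.113 and 0.22 ± 0.105 (SE), and both had a limma adjusted p of 0.9997. The other 3 probe sets of Sfrp1 were at 0.033, 0.067 and 0.037.

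Fgf15, a fibroblast growth factor of embryonic retinal progenitors, had a log2 signal of 4.73, 5.07, 4.76 and 5.30 in Control 1 to 4 and of 5.36, 4.97, 5.56 and 5.14 in Z/Edn2 1 to 4. The groups overlapped, and only 2 of the 4 pairs were higher in Z/Edn2. The log2 fold change was 0.29 ± 0.163 (SE, limma adjusted p = 0.9997), and the mean log2 signal over all arrays, 5.11, was below every array median. Fzd5, a Wnt receptor of the eye field, had a probe set (1422937_at) at 5.70, 5.57, 5.50 and 5.56 in Control 1 to 4 and 5.91, 5.70, 5.82 and 5.58 in Z/Edn2 1 to 4. All 4 pairs were higher, yet Z/Edn2 4 lay within the Control range. The mean log2 signal of 1422937_at over all arrays, 5.67, was also below every array median. The other probe set of Fzd5 had a log2 fold change of −0.0068. Cdon, a co-receptor for Sonic hedgehog, was at 10.17, 9.91, 10.35 and 10.15 in Control 1 to 4 and 10.30, 10.14, 10.31 and 10.43 in Z/Edn2 1 to 4 (1434957_at). The values overlapped, with a log2 fold change of 0.15 ± 0.108, and its second probe set was at 0.062.

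Among the bHLH factors and Notch effectors, 0 of 13 probe sets were called. The difference was positive in 10, and the median log2 fold change was 0.097. Atoh7, the bHLH factor that retinal ganglion cells need, had at 1450796_at a log2 signal of 6.13, 5.95, 6.08 and 6.02 in Control 1 to 4 and of 6.38, 6.39, 6.40 and 6.17 in Z/Edn2 1 to 4. Each Z/Edn2 array was above every Control array, though the mean log2 signal over all arrays, 6.19, was below every array median. The log2 fold change was 0.29 ± 0.0855 (SE, 1.22-fold), with a limma adjusted p of 0.889, or 0.371 with the block. Its other probe set, 1422929_s_at, overlapped between the groups and had a log2 fold change of 0.13 ± 0.108. For comparison, the list of retinal ganglion cell genes had 16 of 16 probe sets with negative differences, a median log2 fold change of −0.37 and 0 calls.

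Neurog2, a proneural bHLH factor of dividing progenitors, had the largest SD of the 69 probe sets among the Z/Edn2 arrays, 1.00. Its log2 signal was 8.09, 7.57, 8.10 and 8.25 in Control 1 to 4 and 8.47, 8.51, 6.70 and 8.96 in Z/Edn2 1 to 4. The Z/Edn2 arrays 1, 2 and 4 lay above every Control array, and Z/Edn2 3, which had the highest array median, below all of them. The log2 fold change was 0.16 ± 0.421 (SE) with all arrays and 0.64 ± 0.185 without Z/Edn2 3, and it did not pass in either case (limma adjusted p = 0.9997 and 0.989). Without Control 1, Z/Edn2 1 and Z/Edn2 3 it was 0.76 (adjusted p = 0.764). That 1 array thus decided the size of this difference.

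Olig2, a bHLH factor of progenitors close to their last division, had a log2 signal of 5.16, 4.85, 4.98 and 5.19 in Control 1 to 4 and of 5.53, 5.24, 4.98 and 5.27 in Z/Edn2 1 to 4. Z/Edn2 3 lay within the Control range and the others above it, for a log2 fold change of 0.21 ± 0.129 (SE, limma adjusted p = 0.9997). The mean log2 signal of Olig2 over all arrays, 5.15, was below every array median. Neurod1, a bHLH factor that photoreceptors keep for their survival, was at 12.92, 13.18, 13.04 and 13.21 in Control 1 to 4 and 12.96, 12.92, 12.95 and 12.92 in Z/Edn2 1 to 4 (1426413_at). The Z/Edn2 arrays were close together at the level of Control 1, below the other Control arrays, and the log2 fold change was −0.15 ± 0.0855. The other Neurod1 probe set was at −0.079. Neurod4, a bHLH factor of bipolar and amacrine precursors, had 3 probe sets at −0.033, 0.097 and 0.0033.

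Hes5, an effector of Notch that represses proneural genes, and Hes6, a relative that opposes Hes activity in differentiating cells, had log2 fold changes of 0.027 and 0.082 and of 0.097 and 0.14. They differed far more between replicates than between genotypes. At 1452021_a_at, Hes6 had a log2 signal of 9.51, 8.34, 8.86 and 9.13 in Control 1 to 4 and of 9.72, 8.56, 9.08 and 9.04 in Z/Edn2 1 to 4. At 1423146_at, Hes5 was at 8.41, 7.62, 7.68 and 8.01 in Control 1 to 4 and 8.47, 7.44, 7.996 and 7.92 in Z/Edn2 1 to 4. At these probe sets replicate 1 was the highest and replicate 2 the lowest array of each group. At the other probe set of Hes5, 1456010_x_at, replicate 2 was again the lowest, but replicate 4 was the highest, at 8.52 in Control and 8.55 in Z/Edn2 against 8.36 and 8.39 in replicate 1. Their promoters are shown because these were the only genes of the 30 with several probe sets that all had their lowest value in replicate 2 of both groups. The sequences are the 250 bases before the gene's most upstream annotated start, on the gene's strand, from RefSeq (GRCm38.p6), with matches to TGGGAA on either strand, the core of the site bound by the Notch partner Rbpj, and to CANNTG, the E box bound by bHLH factors, in capitals. Windows were given for 25 of the 30 genes.
Hes5 (chr4:154960673-154960922, + strand): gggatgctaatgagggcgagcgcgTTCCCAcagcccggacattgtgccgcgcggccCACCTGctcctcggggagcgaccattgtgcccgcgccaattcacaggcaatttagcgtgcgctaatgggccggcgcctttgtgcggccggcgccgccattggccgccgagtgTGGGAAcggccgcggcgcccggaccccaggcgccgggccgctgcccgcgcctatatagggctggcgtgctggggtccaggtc
Hes6 (chr1:91414039-91414288, − strand): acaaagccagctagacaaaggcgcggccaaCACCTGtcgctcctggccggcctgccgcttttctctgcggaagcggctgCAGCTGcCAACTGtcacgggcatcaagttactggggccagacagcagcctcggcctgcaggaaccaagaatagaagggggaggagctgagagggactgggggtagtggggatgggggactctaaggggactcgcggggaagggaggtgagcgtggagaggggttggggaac
The Hes5 window held 2 matches to TGGGAA and 1 to CANNTG, and that of Hes6 held 0 and 3. Over 32851 windows of that length, 21.6% held TGGGAA and 66.2% held CANNTG. A match is a description of the letters in the window, not a site.

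The factors of newborn neurons had 16 probe sets, of which 0 were called and 14 were positive, with a median log2 fold change of 0.13. Sox4 and Sox11 are related HMG-box factors of cells that have just left the cell cycle, and Insm1 is a zinc finger factor of the same stage. All 8 probe sets of Sox4 were positive, from 0.049 to 0.20, and all 6 of Sox11, from 0.069 to 0.31, while both of Insm1 were negative, at −0.036 and −0.19. Sox11 at 1453002_at had a log2 signal of 7.86, 7.48, 8.02 and 8.18 in Control 1 to 4 and of 8.15, 7.87, 8.27 and 8.40 in Z/Edn2 1 to 4. The groups overlapped, but each pair was higher in Z/Edn2, by 0.22 to 0.39, so the limma adjusted p was 0.9997 without and 0.325 with the block, for a log2 fold change of 0.29. Sox4 at 1433575_at was at 13.03, 12.65, 12.98 and 13.08 in Control 1 to 4 and 13.09, 12.85, 12.88 and 13.13 in Z/Edn2 1 to 4, with a log2 fold change of 0.049 ± 0.116 (SE).

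Of the fate factors of photoreceptors, amacrine and horizontal cells, 0 of 6 probe sets were called, 3 were positive and 3 negative. Otx2, which photoreceptors and bipolar cells need, had a log2 signal of 12.51, 12.04, 12 and 12.28 in Control 1 to 4 and of 12.57, 11.80, 11.99 and 12.34 in Z/Edn2 1 to 4. Replicate 1 was the highest in both groups, and the log2 fold change was −0.031 ± 0.179 (SE). Prdm1, a repressor that holds cells in the photoreceptor rather than the bipolar fate, was at 10.25 ± 0.271 in Control and 10.30 ± 0.274 in Z/Edn2. Foxn4, a forkhead factor for amacrine and horizontal cells, was at 6.68, 6.51, 6.79 and 6.72 in Control 1 to 4 and 6.85, 6.86, 7.12 and 6.77 in Z/Edn2 1 to 4. Only Z/Edn2 4 lay within the Control range, and each pair was higher. The difference was 0.22 ± 0.102 (SE, log2, limma adjusted p = 0.9997, or 0.528 with the block). Rorb, a nuclear receptor upstream of rod and amacrine differentiation, had 3 probe sets at −0.087, −0.11 and 0.26. The last, 1455799_at, ranged from 9.55 to 11.16 in Control and from 10.49 to 10.70 in Z/Edn2.

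The genes of cell cycle exit and growth arrest had 5 probe sets with 0 calls. Btg2, an antiproliferative gene of cells in their last division, had a log2 signal of 10.35, 10.03, 10.27 and 10.23 in Control 1 to 4 and of 10.54, 10.14, 10.19 and 10.47 in Z/Edn2 1 to 4 (1448272_at). The groups overlapped, with a log2 fold change of 0.11 ± 0.117 (SE). Gadd45a, a stress-induced growth arrest gene, was lower in Z/Edn2 in 4 of 4 pairs, by 0.04 to 0.33, and the mean difference was −0.14 ± 0.112 (SE, log2, limma adjusted p = 0.9997). Mybl1, a Myb family factor, had 2 probe sets, at 0.20 and 0.28.

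The regional patterning factors had 9 probe sets with 0 calls and a median log2 fold change of 0.082. Zic1, a zinc finger factor of the young optic vesicle and peripheral retina, had 2 probe sets that were each higher in Z/Edn2 in 4 of 4 pairs. At 1423477_at its log2 signal was 7.99, 7.47, 8.09 and 8.05 in Control 1 to 4 and 8.18, 7.97, 8.35 and 8.18 in Z/Edn2 1 to 4. At 1439627_at it was 6.08, 6.36, 6.75 and 6.55 in Control 1 to 4 and 6.29, 6.67, 6.92 and 7.07 in Z/Edn2 1 to 4. The groups overlapped in both, the log2 fold changes were 0.27 ± 0.147 and 0.30 ± 0.189 (SE), and the limma adjusted p was 0.9997 for each, or 0.474 and 0.387 with the block. Nr2f1, a nuclear receptor of dorsoventral and neuronal identity, was at 9.20, 9.13, 9.28 and 9.26 in Control 1 to 4 and 9.17, 9.07, 9.22 and 9.37 in Z/Edn2 1 to 4, for a log2 fold change of −0.010. The 6 probe sets of its relative Nr2f2, which veins and astrocytes also express, lay between −0.082 and 0.18.

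**Figure D2:**
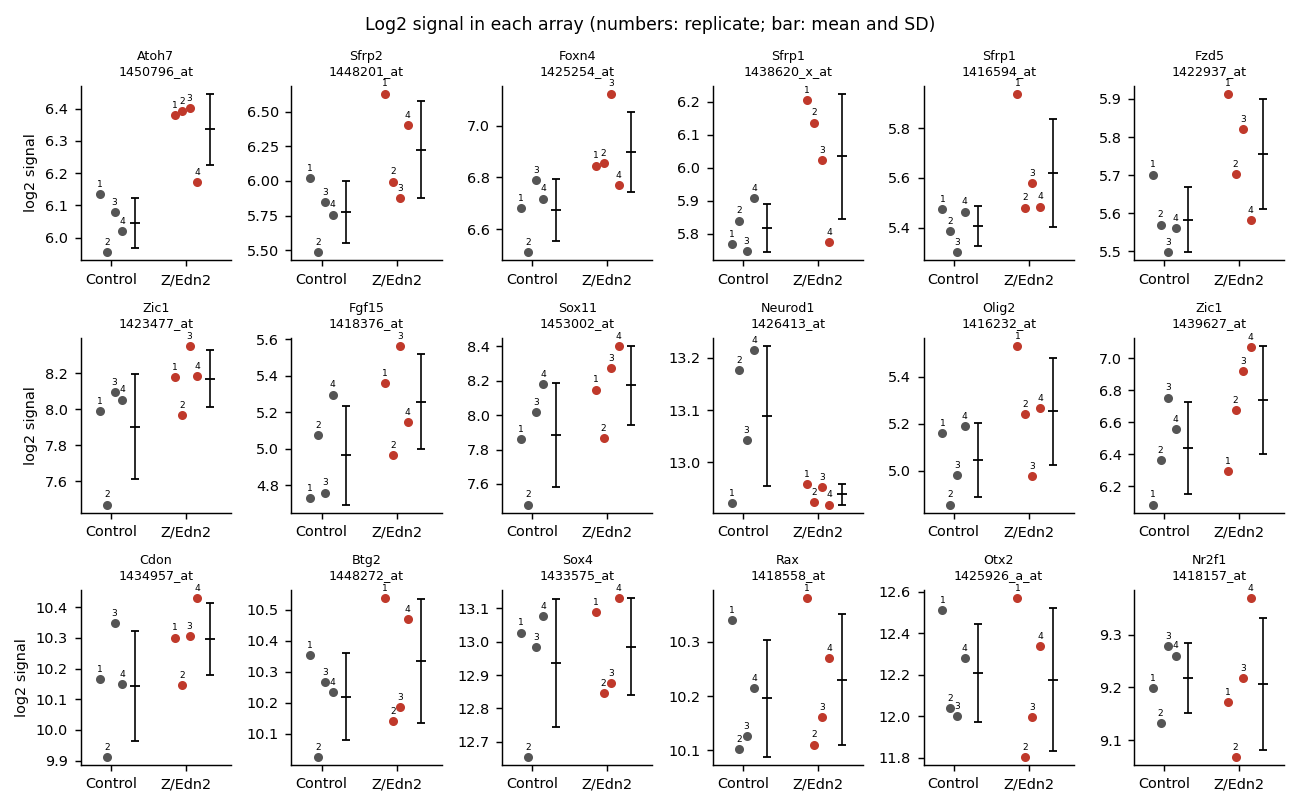
Log2 signal (y axis, a separate range in each panel) of 18 probe sets, the 12 with the smallest p and the brightest of each role group, in the 4 Control arrays (grey) and the 4 Z/Edn2 arrays (red), with replicate numbers beside the points and the mean ± SD at the right of each group. Atoh7 at 1450796_at and Sfrp1 at 1416594_at are the only panels in which the groups do not overlap.

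The members varied together by replicate number, in both genotypes. In 24 of the 69 probe sets (34.8%) replicate 2 had the lowest value of both the Control and the Z/Edn2 group, where 8.01% of all named probe sets did. The share was 48.4% of the 31 cell division probe sets, 37.1% of the 35 of other progenitor and Notch genes and 32.3% of the 31 of young neuron genes. These 24 came from 15 genes, among them Sox4 with 5 of 8 probe sets and Sox11 with 4 of 6. Replicate 2 was the highest array of both groups in 0 of the 69, against 7.79% of all. Replicate 1 was the highest of both groups in 23 of the 69 (33.3%), against 18.7% of all. Replicate 4 was the highest of both groups in 10 of the 69 (14.5%), against 5.09% of all. With 1 probe set per gene, the brightest, replicate 2 was the lowest of both groups in 14 of the 30 genes (46.7%), against 7.29% of all genes. This pattern was noticed in these data, and it is given as a description with no test.

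The gap between replicates 1 and 2 exceeded the genotype difference in some probe sets of the newborn neuron factors and not in others. Sox4 at 1419156_at had a log2 signal of 10.92, 9.71, 10.22 and 10.43 in Control 1 to 4 and of 10.99, 9.96, 10.33 and 10.64 in Z/Edn2 1 to 4. Replicate 1 exceeded replicate 2 by 1.21 in Control and 1.03 in Z/Edn2, while the log2 fold change between the genotypes was 0.16. For Insm1 at 1421399_at, with 11.60, 10.89, 11.07 and 11.06 in Control 1 to 4 and 11.91, 10.62, 10.79 and 11.15 in Z/Edn2 1 to 4, the same gaps were 0.71 and 1.29. Hes6 at 1452021_a_at had gaps of 1.18 and 1.15. In contrast, Sox11 at 1431225_at, its brightest probe set, had gaps of 0.43 and 0.23 against a genotype difference of 0.31. Sox4 had gaps of 0.04 and −0.10 against 0.12 at 1443778_at, and of −0.16 and −0.23 against 0.052 at 1458332_x_at. Both of these Sox4 probe sets had low mean log2 signals over all arrays, 3.42 and 4.83, below every array median. They therefore say little about a gap. At the other Sox4 probe sets the gap exceeded the genotype difference in both groups. Probe sets of 1 gene still differed in its size. In Control it ran from 0.37 at 1433575_at to 1.97 at 1419157_at among these Sox4 probe sets. In Sox11 it ran in Control from 0.35 at 1429372_at to 2.00 at 1453125_at. The 3′ minus 5′ actin difference set replicate 1 apart, and its part in these gaps was not tested. Replicate 2 was at 1.09 in both groups in that measure, against 1.31 and 1.06 in Control 3 and 4 and 1.12 and 1.42 in Z/Edn2 3 and 4, and the part of the measure in the replicate 2 values was not tested either.

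**Figure D3:**
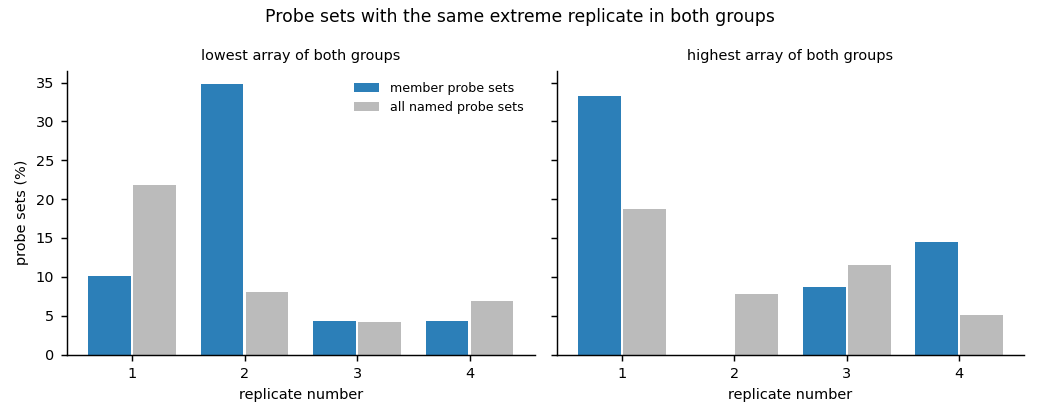
Percentage of probe sets (y axis) whose lowest (left) or highest (right) array carried the given replicate number (x axis) in both groups, for the 69 member probe sets (blue) and all named probe sets (grey). Replicate 2 was the lowest of both groups in 34.8% of the member probe sets and the highest in 0 of them.

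The lists of late retinal genes had their highest values in replicate 2, where the members were low. The mean deviation from the Control mean over 17 late rod genes was −0.44, 0.59, 0.06 and −0.21 in Control 1 to 4 and −0.39, 0.34, −0.14 and −0.20 in Z/Edn2 1 to 4 (log2, brightest probe set of each gene). Over 11 bipolar cell genes it was −0.32, 0.39, 0.10 and −0.17, then −0.32, 0.36, −0.08 and −0.15. Replicate 2 was the highest and replicate 1 the lowest array of each group in both lists. Replicate 2 was the highest of both groups in 15 of 23 late rod probe sets, 7 of 12 late cone probe sets, 12 of 25 of bipolar cells and 10 of 25 of late Mueller glia. For the 3 newborn neuron factors the deviation was 0.18, −0.33, −0.12 and 0.27 in Control 1 to 4 and 0.40, −0.18, 0.04 and 0.16 in Z/Edn2 1 to 4. For 14 cell division genes it was −0.02, −0.26, 0.12 and 0.15, then 0.02, −0.20, 0.38 and 0.22, so that replicate 2 was again the lowest. The labels do not say what same-numbered pools shared, such as a litter or a day of preparation, and the exact age of each pool within P8 is not given in the sources used here.

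**Figure D4:**
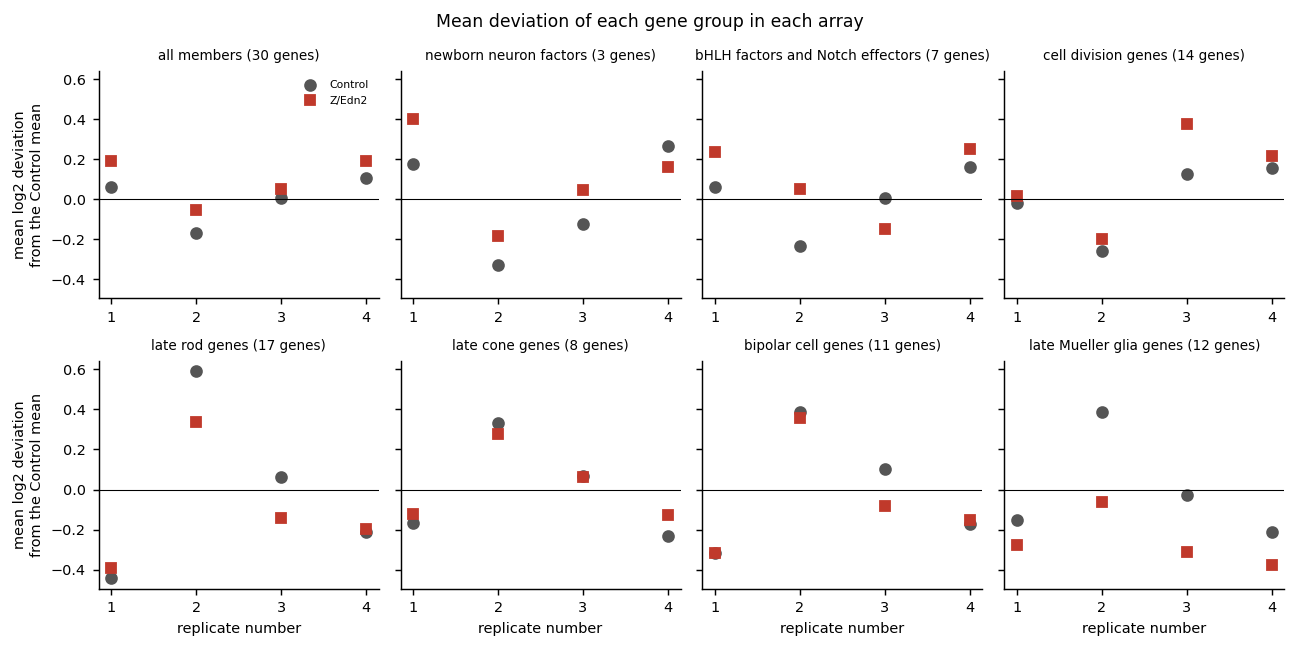
Mean log2 deviation from the Control mean (y axis) of 8 gene groups in each array, by replicate number (x axis), with the brightest probe set of each gene, for Control (grey circles) and Z/Edn2 (red squares). Late rod genes were at 0.59 and 0.34 in replicate 2 and at −0.44 and −0.39 in replicate 1, while the newborn neuron factors were at −0.33 and −0.18 in replicate 2 and at 0.18 and 0.40 in replicate 1. In replicate 4 the late rod genes were at −0.21 and −0.20 and the newborn neuron factors at 0.27 and 0.16.

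Between the genotypes, the other genes of the sequence from progenitor to mature cell held few calls. Of 35 probe sets of 18 other progenitor and Notch genes, 0 were called, 26 were positive and 9 negative, with a median log2 fold change of 0.13. Sox9, an SRY-box factor of progenitors and Mueller glia, went from 7.29 ± 0.134 to 7.85 ± 0.166 (log2 signal, SD, n = 4 each; log2 fold change 0.56 ± 0.108 SE, limma adjusted p = 0.205), and rose by the fit with the block (adjusted p = 0.046). The differences were 0.26 for Sox8, its relative, and 0.30 for Gli1, a target of hedgehog signalling (log2, limma adjusted p = 0.9997 for both). Of 31 cell division probe sets 0 were called and 25 were positive, with a median of 0.070, and the mitotic kinase Cdk1 differed by 0.27, Bub1, a spindle checkpoint kinase, by 0.25 and Mcm6, a replication helicase subunit, by 0.18. Ccnd2, cyclin D2, which was on the list of ciliary margin genes, rose with the block at 4 probe sets (0.85 to 1.11, adjusted p = 0.00279 to 0.0383). These 4 missed the threshold in the unblocked fit (adjusted p = 0.0602 to 0.169). Any further probe set of Ccnd2 passed in neither fit. No other gene of that list passed in either fit.

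Of the 31 probe sets of young neuron genes, 1 was called, that of Dlx1, a homeobox factor of inhibitory interneurons, which rose by 1.58 ± 0.209 (SE, log2, limma adjusted p = 0.0319) from 3.89 ± 0.181 to 5.47 ± 0.463. Its relative Dlx2 differed by 0.90 and did not pass (log2, limma adjusted p = 0.647). Over the whole list 19 of 31 differences were negative, with a median of −0.047, and Elavl4, an RNA-binding protein of neurons, was at −0.21.

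Late genes of photoreceptors, bipolar cells and Mueller glia held 0 calls in the unblocked fit. Over the 23 late rod probe sets the difference was negative in 18 and positive in 5, with a median of −0.11. Pde6b, a subunit of the rod phosphodiesterase, was at −0.16 and Pde6g, another subunit, at −0.18, each lower in 4 of 4 pairs. In all, 5 of the 23 were lower in 4 of 4 pairs, against 2412 of 34945 over all. Gngt1 was at −0.17 and higher in 1 of 4 pairs. Late cone genes had a median of 0.039 over 12 probe sets, bipolar cell genes −0.074 over 25, and the photoreceptor specification factors 0.016 over 15, each with 0 calls. The bipolar cell differences were positive in 8 and negative in 17. Vsx1, the bipolar gene with the smallest p, was at 0.34 and higher in 4 of 4 pairs, while Trpm1 was at −0.14 and Scgn at −0.12. In late Mueller glia genes 22 of 25 differences were negative, with a median of −0.17. Abca8a, a lipid transporter, went from 9.67 ± 0.718 to 8.55 ± 0.592 (adjusted p = 0.9997, and lower by the blocked fit, adjusted p = 0.0421), and Slc1a3, the glial glutamate transporter, was at −0.21. In contrast, 10 of 24 probe sets of the hypoxia response list rose and 0 fell, with a median of 0.67, among them Adm, the peptide adrenomedullin, at 2.44 ± 0.127 (SE, adjusted p = 0.000116). That list was drawn up with its rise already known, so it gives scale and no independent evidence.

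Other cell types were measured beside the members. Over the 12 probe sets of 5 retinal astrocyte genes, 12 differences were positive, with a median of 0.39 and 0 calls. Igfbp5, an IGF-binding protein, rose by the fit with the block (0.74, log2, limma adjusted p = 0.0257, or 0.878 without it). Of 17 endothelial probe sets 1 fell, that of Tek, the angiopoietin receptor, at −1.54 (adjusted p = 0.00418). The mural, microglial, pigment epithelial, lens, amacrine and horizontal, and ganglion cell lists had 0 calls in either fit. In the ganglion cell list, however, 8 of 16 probe sets had an unadjusted limma p under 0.05, or 14 with the block, all lower. The shares over all were 4.03% and 8.54%. Nefm was at −0.65, Thy1 at −0.80 and Sncg at −0.46 (log2, limma adjusted p = 0.206, 0.562 and 0.612). Array means over the 8 pigment epithelium genes lay between 6.42 and 6.62 in Control and between 6.16 and 6.77 in Z/Edn2, and those of the 8 lens genes between 5.76 and 6.41 and between 5.81 and 6.48 (log2 signal). The part of these cells in the members' values was not tested.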

How the data were processed

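The values deposited by the authors are log2 signals of probe sets from RMA (background correction, quantile normalization and probe set summary), per the submitters' processing notes, without a version. The values were used as deposited. The authors' deposited table of the comparison gives, per the file headers, log2 fold change, fold change and p-value. The deposited fold change is a score that the authors gave a minus sign for lower expression, and the test behind the p-value is not given in the sources used here. Its log2 fold changes equalled the Z/Edn2 minus Control differences within 4.9e-08. Of 45101 probe sets, 64 were array controls, 34945 had 1 gene symbol, 932 several and 9160 none. The 69 member probe sets were all found by Entrez identifier in a RefSeq table, with 0 symbols changed.

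Probe sets with 1 symbol were compared with limma 3.58.1 (lmFit, eBayes, two-sided) under R 4.3.3. P-values were adjusted by Benjamini-Hochberg over all 34945, the threshold was 0.05, and no filter was set. The fit without the block was tested on simulated data with independent noise in each array. The blocked fit was not tested in this way. The number of arrays limits the precision. P-values set the difference between the groups against the spread between pools within a group, which eBayes moderates over all probe sets. Same-numbered arrays had correlations of their deviations from the group means of 0.80, 0.43, 0.18 and 0.31, all over 0.1, and a blocked fit was therefore set beside the main one. Control 3 correlated more with Z/Edn2 4, at 0.41, and Z/Edn2 2, at 0.19, than with Z/Edn2 3. Z/Edn2 4 thus correlated more with Control 3 than with Control 4, at 0.31. The pairing comes from this check and the shared numbers, since the labels do not say what a number shared. The members and lists were chosen with earlier results of these data known. All 30 genes are named. Values of every array go to probe sets past the threshold in either fit (there were 0), then to the 12 with the smallest p, and to the brightest of each role group, and of the other lists to called genes and up to 3 with the smallest p. Array values of further members, and the figures by replicate number, were chosen after the values were seen.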

Additional observations from a re-analysis of the deposited data

Results flagged for a closer look

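In groups of 4 arrays, a value was singled out where its gap to the nearest other array, as a share of the group's range, exceeded Dixon's critical value. Of 138 groups (69 probe sets in each genotype) 9 held such an array, and chance alone singles out about 1 in 20. Z/Edn2 1 was the array in 5 of the 9. It was at 6.50 for Six3 (1426637_a_at) against 4.83 to 4.96 in the other Z/Edn2 arrays, at 7.15 for Cdon (1421452_at) against 6.04 to 6.11, at 10.92 for Sox4 (1419157_at) against 8.98 to 9.12, and at 10.94 for Btg2 (1416250_at) against 9.98 to 10.12 (log2 signal). For Rorb (1455799_at) it was the lowest, at 10.49 against 10.67 to 10.70. Control 1 was also the highest Control array in the first 4 of these probe sets. Z/Edn2 4 was the lowest Z/Edn2 array for Atoh7 (1450796_at), at 6.17 against 6.38 to 6.40, and for Gadd45a, at 8.11 against 8.48 to 8.54. Z/Edn2 2 was at 9.74 for Six3 (1427523_at) against 9.98 to 10.02. Control 2 was at 7.47 for Zic1 (1423477_at) against 7.99 to 8.09.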

How the results depend on the processing

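The count of member probe sets called was 0 under each of the 22 alternative settings run, and the smallest adjusted p over these settings, for any member, was 0.202, with the replicate block. The count over all named probe sets, 40, was 94 with the replicate block, 21 with only probe sets above the median level, 6 by the authors' deposited p-values and 3 to 40 when arrays or pairs were left out. By the authors' deposited p-values 1 of the 69 had an unadjusted p under 0.05. The members' median log2 fold change of 0.088 was 0.061 with arrays centred on their medians and 0.039 to 0.16 with arrays left out. Leaving out Control 2 gave 0.039, leaving out Z/Edn2 1 gave 0.056, and leaving out Z/Edn2 2 gave 0.16. The count of 2 without overlap was 1 with centring, 2 to 7 with 1 array or pair left out and 8 without Control 1, Z/Edn2 1 and Z/Edn2 3, a choice made after the data were seen; smaller groups overlap less by construction. Of 384 values of 18 probe sets (the 12 with the smallest p and the brightest of each role group), 12 turned sign, all with arrays left out and none called: Sox4 at 1433575_at ranged from −0.044 to 0.10, Rax from −0.016 to 0.082, Nr2f1 from −0.065 to 0.036 and Otx2 from −0.16 to 0.093. The other 14 kept their sign but not always their size. Without Control 2, Zic1 at 1423477_at was 0.12, Sox11 at 1453002_at 0.15, Cdon 0.074 and Btg2 0.048. Without Z/Edn2 1, Sfrp1 at 1416594_at was 0.11, Olig2 0.11 and Btg2 0.045. Zic1 at 1439627_at was 0.18 without Control 1 and 0.19 without Z/Edn2 4, and Foxn4 was 0.15 without Z/Edn2 3. Fgf15 was 0.19 without Z/Edn2 3 and ranged from 0.012 to 0.44. Without the 3 arrays, Sfrp1 at 1438620_x_at was 0.12 and Fzd5 0.10. The cause was not tested. The share lowest in replicate 2 of both groups was 34.8% of probe sets and 46.7% with 1 probe set per gene. The blocked fit, called replicate block here, left 3 residual degrees of freedom against 6.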
